A study of Mus musculus with 8 samples.

Results

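The suppressors of cytokine signalling, Socs1 to Socs7, and the related gene Cish were followed in NIH3T3 fibroblasts that were starved of serum and then stimulated with it, with or without cordycepin. The members were all probes that the array design names for these 8 genes, 12 probes among the 55681 probes and 35715 gene names of the array. Of the 8 genes, 6 had 1 probe, while Socs2 and Socs6 had 3 probes each. In at least 1 group, each of the 12 probes was well above background on all arrays, so all 12 were tested, a Socs6 probe designed on a cDNA clone through the cordycepin arrays alone. NIH3T3 is an established, immortalised line of mouse embryonic fibroblasts, labelled male. Cordycepin (3′-deoxyadenosine) differs from adenosine in that it lacks the 3′ hydroxyl from which RNA synthesis extends. All cells had grown in 10% newborn bovine serum and were then kept in 0.5% serum for 24 h. By the sample labels, the 3 cordycepin plus serum arrays came from cells given 20 µM cordycepin for 90 min and serum for the last 30 min, and the 3 serum arrays from cells given serum for 30 min after 0.1% DMSO, the solvent. Elsewhere the serum is described as following the 90 min, so the length of exposure is not settled. The 2 no serum arrays came from starved cells without added serum, for which their own labels do not mention DMSO, and no array held cordycepin without serum, so its effect was measured in serum-treated cells only. Nothing in the labels says that the replicates were separate cultures, so the p-values measure the spread between these arrays.

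Suppressors of cytokine signalling are made in response to cytokines and growth factors and act as a negative feedback. Each protein holds an SH2 domain, which binds phosphorylated tyrosines of receptors, kinases or adaptors, and a SOCS box, which binds elongins B and C and a cullin and so directs bound proteins to ubiquitination. SOCS1 and SOCS3 also carry a short region that blocks the kinase activity of JAKs, while CISH and SOCS2 act mainly on receptors that signal through STAT5. SOCS4 and SOCS5 have been linked to the epidermal growth factor receptor, and SOCS6 and SOCS7 to insulin signalling. Genes of the family are among the targets of the STATs, and several of their mRNAs have short half-lives.

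The arrays had a 75th percentile of signal of 302.2 to 692, 51.1 to 57.1% of probes were well above background, and no spot was saturated. Levels below are log2 of the signal after subtraction of the array's own 75th percentile, which itself has the level 0. Arrays of the same group correlated across probes with r between 0.992 and 0.995. The 8 fibroblast markers, among them Col1a1, Vim and Pdgfra, were above background on all 8 arrays, with a summed level of 1770 to 2020 without serum, 1880 to 2160 with serum and 2130 to 2520 with cordycepin plus serum, in multiples of the 75th percentile. Of the blood cell markers, Ptprc was above background on 3 arrays, Cd3e was at -0.20 to 0.50 over all arrays, and Cd68 rose from 0.13 to 3.15 with cordycepin. The summed level of the 4 blood cell markers on the array was 2.01 to 2.31 without serum, 2.03 to 2.39 with serum and 8.76 to 10.9 with cordycepin plus serum, and its part in the results below was not tested. The summed level of the epithelial markers was at most 0.0989 and that of the endothelial markers 5.78 to 8.14, with 0 called. In such bulk samples, fewer cells of a type and less RNA per cell cannot be told apart.

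To determine how cordycepin affected the family in cells responding to serum, cordycepin plus serum was compared with serum alone. The signal of Socs1, Socs5 and Socs3 was lower with cordycepin, the first by 5.29-fold, the second by 2.96-fold and the last by 2.28-fold. Labelling amplified polyadenylated RNA, and the part of this step in the differences was not tested. With the brightest probe standing for each gene, 3 of 8 genes were called lower and 0 higher in limma, where a call needed an adjusted p under 0.05 and a change of at least 1 on the log2 scale. Over all 30857 probes tested, 2.99% were called lower and 7.56% higher. At an unadjusted p under 0.05, 5 of the 8 genes were lower and 0 higher, beside 12.6% and 18.5% of all probes. All 8 brightest probes had a lower mean with cordycepin, and their median change was -0.75 on the log2 scale, beside a median of 0.09 over all probes tested. Of all 12 probes of the family, 10 had a lower mean, and those with a higher mean were the Socs6 probes other than its brightest. The arrays of the 2 groups did not overlap for 5 of the 8 genes, while they did not overlap for 39% of all probes.

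**Figure D1:**
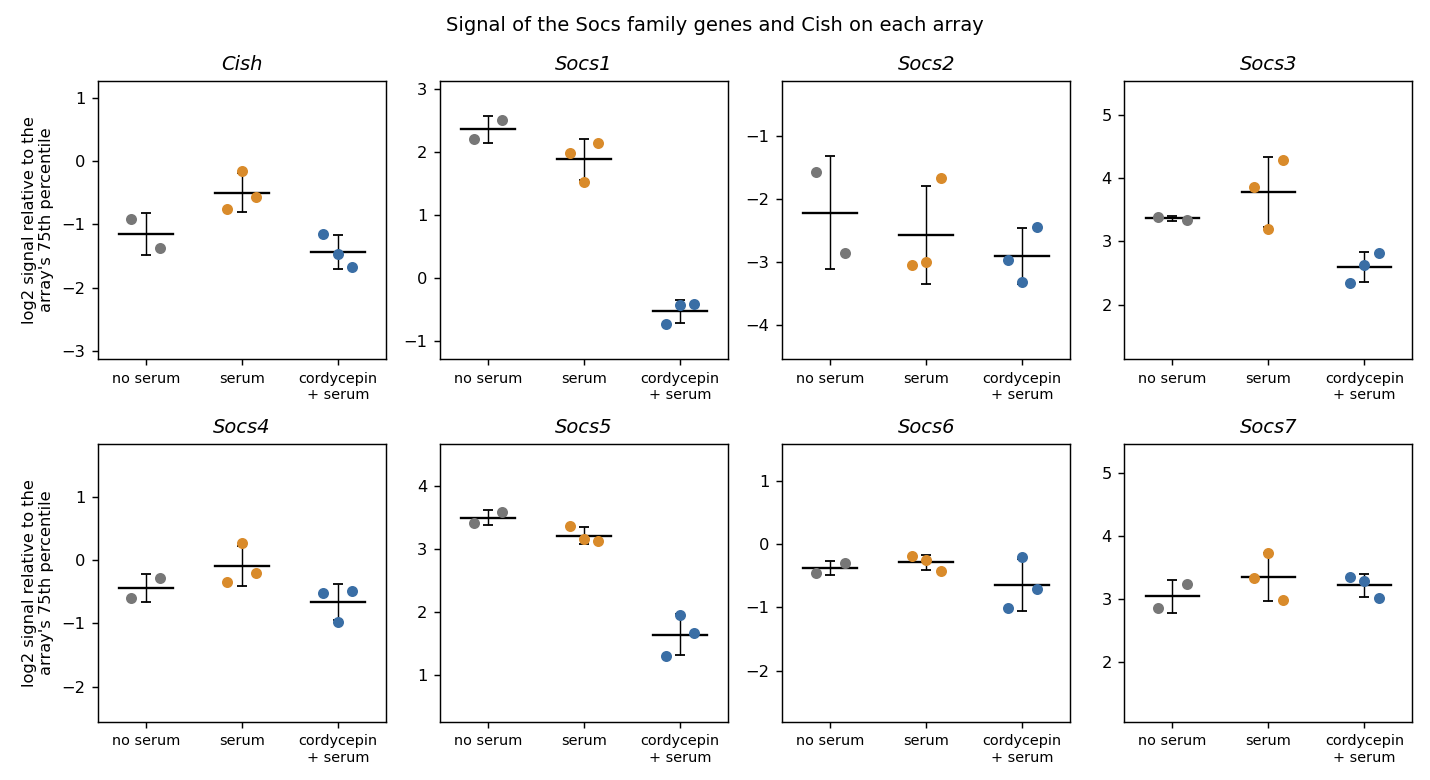
Level of each gene on each array, for its brightest probe. The vertical axis of each panel is log2 of the signal relative to the 75th percentile of the array, with the same span of values in every panel. Points are arrays, bars are group means and whiskers 1 SD. Socs1 and Socs5 lie lower on the 3 cordycepin arrays than on the 5 other arrays, and Socs2 varies widely within every group.

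Socs1 encodes an inhibitor of JAKs that limits interferon and cytokine signalling, and it showed the largest change of the family. Its probe lies at chr16:10783951-10784010 of the mm9 build. Its level was 2.21 and 2.51 on the no serum arrays, 1.98, 1.52 and 2.14 on the serum arrays, and -0.73, -0.43 and -0.41 on the cordycepin plus serum arrays. All 3 cordycepin arrays were thus below all others, by more than the spread within any group. The difference between cordycepin plus serum and serum was -2.40 ± 0.19 (SE), with an adjusted p of 7.18e-05 in limma. Against no serum the difference was -2.88 ± 0.21, a 7.37-fold lower level (adjusted p = 9.4e-05, limma). In that comparison 3.08% of all probes were called lower and 6.46% higher. Serum itself left Socs1 at -0.48 relative to no serum (95% interval -0.96 to 0.00, adjusted p = 0.485 in limma). The order of the levels was therefore no serum, serum and cordycepin plus serum, where the first pair did not overlap (unadjusted p = 0.0499 in limma) but did not differ at the adjusted p. The fall with cordycepin was -2.56 in the upper row of arrays on the slide and -2.24 in the lower row.

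Socs3, at chr11:117827480-117827539, encodes the inhibitor that binds the gp130 receptor chain of the interleukin 6 family and blocks the JAKs attached to it. Its level was 3.39 and 3.34 without serum, 3.86, 3.19 and 4.29 with serum, and 2.34, 2.62 and 2.81 with cordycepin plus serum. The serum arrays spread over 1.11 log2 units, more than those of the other groups, but each was above each cordycepin array. The difference between these groups was -1.19 ± 0.26 (adjusted p = 0.0145, limma). The call was lost without either of 2 arrays: without the third serum array the difference was -0.93, under the minimum change, and without the first cordycepin array it was -1.06 with an adjusted p of 0.058. When the arrays were centred on the spike-in probes, the difference was -1.23 ± 0.51 with an adjusted p of 0.188 in limma. The difference was thus no smaller, but its SE was larger, and Socs1 and Socs5 had the same SE of 0.51 under this scaling. Relative to no serum, Socs3 stood at 0.42 with serum (95% interval -0.26 to 1.10, adjusted p = 0.882 in limma) and at -0.77 with cordycepin plus serum (95% interval -1.45 to -0.09, adjusted p = 0.137), and neither was called. Its order of levels was serum, no serum and cordycepin plus serum, of which the outer groups alone differed in the test.

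Cish, at chr9:107204196-107204255, encodes a SOCS protein that limits signalling through STAT5. Its level was -0.91 and -1.38 without serum, -0.76, -0.16 and -0.57 with serum, and -1.15, -1.47 and -1.68 with cordycepin plus serum. The serum arrays were the highest 3 of the 8 arrays. Cish was 1.92-fold lower with cordycepin plus serum than with serum, a difference of -0.94 ± 0.21 with an adjusted p of 0.0162 in limma, which was under 0.05 but missed the minimum change. With spike-in centring the difference was -0.98 ± 0.51, with an adjusted p of 0.481 in limma. The adjusted p was 0.055 with no filter on dim probes, and 0.0534 and 0.0562 without the second and without the third cordycepin array. Cish passed both thresholds when the arrays were centred on their median (-1.23) or quantile normalised (-1.03), without the first serum array (-1.07) and without the first cordycepin array (-1.08). Within the rows of the slide the difference was -0.55 in the upper and -1.32 in the lower. With normexp background correction it was smaller, at -0.67 (adjusted p = 0.0161, limma). The rise with serum was 0.65 ± 0.24 (95% interval 0.10 to 1.20), with an unadjusted p of 0.0259 and an adjusted p of 0.342 in limma, and was not called. Against no serum, Cish was at -0.29 with cordycepin plus serum (95% interval -0.84 to 0.26, adjusted p = 0.478).

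The promoters of Socs1, Socs3 and Cish are shown since these members, whose products act on JAKs or on the receptors that activate STATs, are textbook STAT targets and were the members with a promoter sequence here whose adjusted p was under 0.05 with cordycepin. Sequences are from RefSeq (build GRCm38.p6) on the strand of the gene, from 200 bases before the transcription start to 20 bases after it, and capitals mark matches to any of the motifs searched.
Socs1 (chr16:10785517-10785736, minus strand): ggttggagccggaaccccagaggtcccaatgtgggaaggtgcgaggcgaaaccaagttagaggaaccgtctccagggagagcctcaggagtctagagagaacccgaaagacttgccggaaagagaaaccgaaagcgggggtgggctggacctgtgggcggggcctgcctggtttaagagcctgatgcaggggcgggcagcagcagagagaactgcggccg
Socs3 (chr11:117969347-117969566, minus strand): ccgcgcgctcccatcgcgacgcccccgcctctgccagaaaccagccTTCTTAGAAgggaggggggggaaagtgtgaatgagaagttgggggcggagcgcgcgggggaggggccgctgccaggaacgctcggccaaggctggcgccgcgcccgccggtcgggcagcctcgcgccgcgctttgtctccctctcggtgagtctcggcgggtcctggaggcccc
Cish (chr9:107296459-107296678, plus strand): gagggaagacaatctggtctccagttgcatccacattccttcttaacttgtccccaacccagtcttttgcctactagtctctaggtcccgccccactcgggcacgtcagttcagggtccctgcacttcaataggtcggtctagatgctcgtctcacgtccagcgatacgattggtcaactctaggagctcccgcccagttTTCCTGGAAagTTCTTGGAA

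Promoter windows, from 250 bases before to 50 after the start, were used for 4 members, Cish, Socs1, Socs3 and Socs4. Any member window on chromosome 18, where Socs6 lies, was left out. The motif of STAT dimers, TTCNNNGAA, was searched on both strands and occurred in 2 of these 4 windows and in 8.3% of all 32851 windows. Cish held it at 2 places, from positions 1 to 9 and from 12 to 20 counted from the transcription start, and Socs3 at 1 place, from -154 to -146. Socs1 and Socs4 held none in these windows. The longer form of this motif that STAT6 prefers (6.95% of all windows), the CArG box of serum response factor (1.63%), the AP-1 site TGANTCA (7.81%), the CRE core TGACGTCA (1.79%), the Egr site GCGTGGGCG (0.612%) and TATAAA (13.6%) were found in 0 of the 4. The bases before the start were rich in G and C in Socs3 (71.6%) and Socs4 (70.4%), with 61.2% in Socs1 and 55.2% in Cish, against a median of 52.4% over all windows. Such matches describe the sequence and do not show binding.

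Socs5, at chr17:87536500-87536559, encodes a member with a long N-terminal region that has been linked to the epidermal growth factor receptor. Its level was 3.41 and 3.58 without serum, 3.36, 3.15 and 3.12 with serum, and 1.31, 1.95 and 1.66 with cordycepin plus serum. The 5 arrays without cordycepin lay within 3.12 to 3.58, and all 3 cordycepin arrays were below 2. The difference between cordycepin plus serum and serum was -1.57 ± 0.17 (adjusted p = 0.000385, limma), and that against no serum was -1.86 ± 0.19, a 3.62-fold lower level (adjusted p = 0.000456). With serum alone Socs5 was at -0.29 relative to no serum (95% interval -0.73 to 0.15, adjusted p = 0.845). In both rows of the slide cordycepin gave a lower level, by -1.73 in the upper and -1.47 in the lower. Socs1 and Socs5 were called lower in both comparisons of cordycepin under all 20 alternative settings.

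Socs4, at chr14:47911161-47911220, is the closest relative of Socs5 in the family. Its level was -0.59 and -0.28 without serum, -0.34, 0.27 and -0.20 with serum, and -0.52, -0.98 and -0.48 with cordycepin plus serum. The serum and the cordycepin arrays did not overlap, but the gap between the nearest of them was small. The difference of -0.57 ± 0.21 had an unadjusted p of 0.0237 and an adjusted p of 0.0966 in limma and was not called. With serum the level was 0.35 above no serum (95% interval -0.18 to 0.88, adjusted p = 0.837).

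Socs7, at chr11:97259763-97259822, encodes a member that binds the adaptor NCK and proteins of insulin signalling. Its level was 2.86 and 3.23 without serum, 3.33, 3.73 and 2.98 with serum, and 3.35, 3.28 and 3.01 with cordycepin plus serum. All 3 groups overlapped. The difference between cordycepin plus serum and serum was -0.14 ± 0.21, with a 95% interval of -0.61 to 0.34 (adjusted p = 0.696, limma), which leaves out a change as large as the minimum of 1. A change of that size was also outside the intervals of Socs7 for serum against no serum (-0.23 to 0.84) and for cordycepin plus serum against cells without serum (-0.36 to 0.70).

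**Figure D2:**
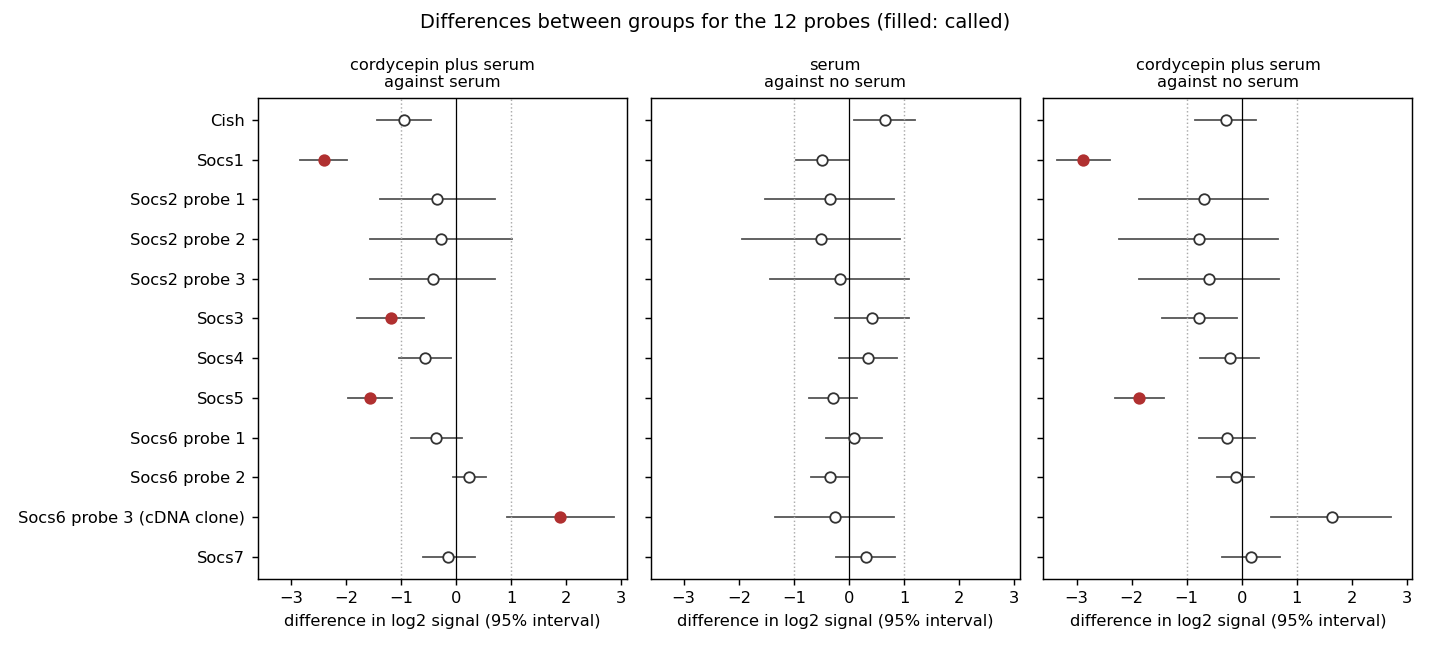
Difference between groups for each of the 12 probes, with the gene's brightest probe first. The horizontal axis is the difference in log2 signal and lines are 95% intervals from limma. Filled points were called (adjusted p under 0.05 and a change of at least 1, dotted lines), which holds for Socs1, Socs3, Socs5 and the cDNA clone probe of Socs6 with cordycepin plus serum against serum, for Socs1 and Socs5 against no serum, and for no probe with serum alone. The clone probe was tested through the cordycepin arrays alone, so its point is a description.

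Whether 30 min of serum changed the family was asked by comparing serum with no serum. In limma 0 of 8 genes were called higher and 0 lower, and the same was found over the 12 probes, while 0.878% of all probes were called higher and 0.898% lower. At an unadjusted p under 0.05 in limma, Cish was higher and Socs1 lower, and so was the second probe of Socs6, beside 4.19% of all probes higher and 6.11% lower. The brightest probes spanned -0.48 for Socs1 to 0.65 for Cish, with a median of 0.20 beside -0.01 for all probes tested. This median was -0.14 when the arrays were centred on the spike-in probes, a scaling that moved the median of all probes to -0.35. The 2 no serum arrays limited the precision of this comparison, and the 95% interval of Socs3 reached a rise of 1.10.

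In cordycepin plus serum against no serum, 2 of 8 genes were called lower, Socs1 and Socs5, and 0 higher. The shares over all probes were the 3.08% and 6.46% given for Socs1. At an unadjusted p under 0.05, 3 were lower, the third being Socs3, and 0 higher, beside 11.3% and 15.5% of all probes. The median change of the 8 genes was -0.49, beside 0.07 over all probes tested. Both comparisons of cordycepin share its 3 arrays, so they are not independent of each other.

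Socs2 encodes a suppressor of growth hormone and STAT5 signalling, and was measured by 3 probes whose values moved together from array to array. The brightest probe is placed by the array design at chr12:14501723-14501782 and another at chr12:14502004-14502063 of mm9, although RefSeq places Socs2 on chromosome 10, where the remaining probe lies (chr10:94875066-94875125). All 3 carry the same RefSeq mRNA in the design, and whether their signal came from Socs2 or from a like sequence on chromosome 12 cannot be told apart for the probes placed there. The brightest probe is shown so that it can be placed.
Socs2 probe 1: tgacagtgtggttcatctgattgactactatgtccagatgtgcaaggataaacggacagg

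The level of this probe was -1.58 and -2.85 without serum, -3.04, -2.99 and -1.67 with serum, and -2.96, -3.32 and -2.44 with cordycepin plus serum. In each group 1 array was above the others, namely the first no serum array, the third serum array and the third cordycepin array. On the chromosome 10 probe, the levels were -1.95 and -3.40 without serum, -3.63, -3.70 and -2.20 with serum, and -4.02, -3.77 and -2.58 with cordycepin plus serum, and the same 3 arrays were the highest. The third probe had its highest level on the same 3 arrays. The chromosome 10 probe was printed in 10 copies on each array, of which 9 or 10 were used, and the SD between them was 0.05 to 0.26 on the log2 scale, while the range between arrays of a group was 1.43 to 1.49. Over the 8 arrays the probes correlated with r of 0.90 to 0.95, given as a description.

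No comparison of Socs2 was called. The difference between cordycepin plus serum and serum was -0.34 for the brightest probe, with a 95% interval from -1.39 to 0.71 (adjusted p = 0.649, limma), and the other probes gave -0.28 and -0.42. With serum against no serum it was -0.35 (95% interval -1.52 to 0.82, adjusted p = 1). Both intervals held a 2-fold lower level. With normexp background correction the change against serum was -0.07 for the brightest probe. It was 0 for the chromosome 10 probe and -0.03 for the third, so the size of these changes depended on the background correction.

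**Figure D3:**
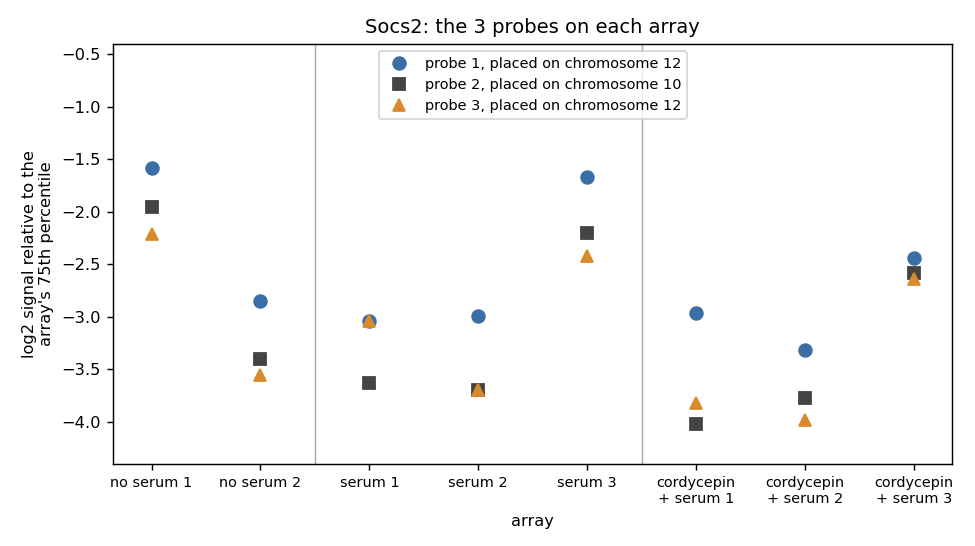
Level of the 3 Socs2 probes on each of the 8 arrays, as log2 of the signal relative to the 75th percentile of the array. Probe 1 is the brightest and probe 2 is the one placed on chromosome 10. The first no serum array, the third serum array and the third cordycepin array are the highest of their groups on all 3 probes.

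Socs6, whose product binds insulin receptor substrates and the KIT receptor, had 3 probes on chromosome 18 that did not move together. Its brightest probe (positions 89038580-89038639) was at -0.45 and -0.30 without serum, -0.19, -0.25 and -0.42 with serum, and -1.01, -0.20 and -0.71 with cordycepin plus serum. The cordycepin arrays spread over both other groups, and the difference from serum was -0.36 (95% interval -0.81 to 0.10, adjusted p = 0.262 in limma). The second probe of the same mRNA (89037298-89037357) was at 0.24 in that comparison (95% interval -0.06 to 0.54, adjusted p = 0.257). Neither was called in any comparison.

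The last Socs6 probe was designed on a cDNA clone and lies 14133 bases further along the chromosome (89023165-89023224), beyond both mRNA probes in the direction of transcription. It was not well above background on any of the 5 arrays without cordycepin and was so on all 3 cordycepin arrays, at -3.91, -4.21 and -4.36. The signal was therefore at least 2.04-fold higher with cordycepin plus serum than with serum, where the mean of the cordycepin arrays is set against the lowest signal that counts as above background. Since the probe passed the filter only through the cordycepin arrays, where it is high, its direction was set by that filter and its values are a description. Its fitted means were -4.16 and -6.05 with an adjusted p of 0.0147 in limma. Against no serum it was at least 2.39-fold higher, with an adjusted p of 0.0539. With normexp background correction its change was 0.54 (adjusted p = 0.0738), and without the first cordycepin array its adjusted p was 0.0589.

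The pathway in which the family acts was described by lists of genes, each with its brightest probe. Of 10 other inhibitors of JAK and STAT signalling, such as phosphatases and PIAS proteins, 1 was called higher with cordycepin plus serum against serum and 0 lower. Over all probes tested, 7.56% were called higher and 2.99% lower. The inhibitor called was Ptpn6, the phosphatase SHP-1 of blood cells, which was 2.97-fold higher (adjusted p = 0.000481, limma). The 4 JAK kinases spanned 0.00 to 0.14 in this comparison, with 0 called, and the other probe of Jak3 was at -0.17. Of 21 cytokine receptor genes 0 were called, with a median of 0.10. The change of Stat3, the main STAT of the interleukin 6 family, was -0.23 for its brightest probe (adjusted p = 0.289, limma) and -0.89 for its other probe. With serum against no serum these probes changed by 0.12 and 0.75, so the 2 probes of Stat3 differed in the size of their change.

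Among 8 STAT target genes outside the family, 2 were called lower with cordycepin plus serum against serum and 0 higher, with a median change of -0.66. Over all probes tested, 2.99% were called lower and 7.56% higher, with a median of 0.09. Nfil3, a bZIP transcription repressor, was 3.08-fold lower (adjusted p = 0.000629), and Cebpb, a bZIP activator of the acute phase, was 2.18-fold lower (adjusted p = 0.000951). Nfil3 was also the 1 target called with serum, at 2.74-fold above no serum (adjusted p = 0.0146). Irf1, an interferon regulatory factor, was 2.53-fold lower with cordycepin plus serum than without serum (adjusted p = 0.000831, limma). In that comparison 2 of the 8 targets were called lower and 0 higher, beside 3.08% and 6.46% of all probes. With spike-in centring 1 target was called lower with cordycepin plus serum against serum, and 0 in the other comparisons.

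Of the 6 genes for gp130 cytokines tested, which signal through the receptor that SOCS3 binds, Lif was called higher with serum at 2.60-fold (adjusted p = 0.0119, limma). Of all probes, 0.878% were called higher with serum. The call of Lif was lost with spike-in centring. Cntf was called higher with cordycepin plus serum against serum at 3.69-fold (adjusted p = 5.21e-05, limma), and its other probe changed by 1.71 on the log2 scale. In that comparison 7.56% of all probes were called higher and 2.99% lower. The 6 subunits of the SOCS box ligase changed by 0.00 to 0.18 on their brightest probes, with 0 called, while another probe of Rbx1 changed by 0.91. Among 8 receptors and adaptors bound by SOCS proteins 0 were called with cordycepin plus serum against serum. Their median change was -0.30 and the highest was 0.24. Irs2 (-0.91), Irs1 (-0.73) and Nck1 (-0.70) had an adjusted p under 0.05 in limma but missed the minimum change. Of 15 other SOCS box proteins tested, 1 was called higher in the same comparison, beside the 7.56% of all probes. This was Asb11, which was not above background on any array without cordycepin. It was tested only through the cordycepin arrays, where it is high, so its value of at least 3.03-fold above serum (adjusted p = 9.04e-05) is a description.

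**Figure D4:**
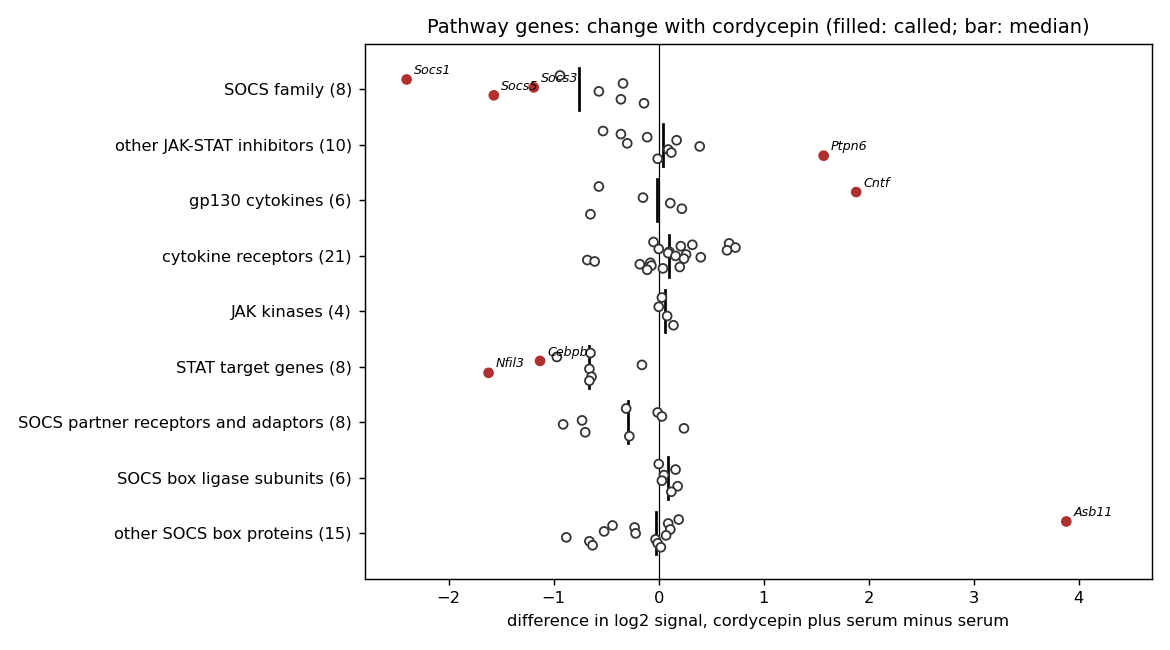
Change of the genes of pathway lists with cordycepin plus serum against serum, 1 probe a gene. The horizontal axis is the difference in log2 signal, points are genes, filled points were called and are named, and vertical bars are list medians. The number of genes tested stands after each list's name. The family and the STAT targets have medians of -0.75 and -0.66.

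The genes whose pattern over the 8 arrays was most like that of the called members were sought among 17775 probes for RefSeq mRNAs. For Socs1 these were Fam212b (r = 0.9972), Adat3 (r = 0.997) and Zfp953 (r = 0.9966). The mean of Fam212b with cordycepin plus serum, -6.17, was below the lowest level above background on those arrays (-5.32 to -4.8). For Socs5 they were Zfp787 (r = 0.9995), Toe1 (r = 0.9944) and Rnf169 (r = 0.9936). All 6 had a lower mean with cordycepin plus serum than in both other groups, as in Rnf169, at 0.20 against 1.66 and 1.82. The nearest patterns to Socs3, among them Psd3 (r = 0.9724) and Itpk1 (r = 0.9678), moved less, with group means of Psd3 between 2.65 and 2.95. The points of these correlations share arrays and groups, and they serve as a description.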

How the data were processed

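The deposited files hold the intensity of each spot on 8 one-colour Agilent mouse arrays, hybridised with total RNA that was labelled by a kit that amplifies polyadenylated RNA. Per the file headers, the authors extracted the processed intensity with Feature Extraction 10.7.3.1, with spatial and multiplicative detrending and without local background subtraction. The labels name the tool without a version. Probe positions refer to mm9. The study's methods name limma and no normalisation.

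Outlier spots were left out, spots of a probe were averaged, and the 75th percentile over non-control probes was subtracted from log2 of the signal of each array, which hides any shift that most transcripts share. The 30857 probes tested had a value on all arrays and were well above background throughout at least 1 group. Limma 3.58.1 in R 4.3.3 was fitted with 1 mean per group over all 8 arrays, with two-sided p-values adjusted by Benjamini and Hochberg over all tested probes. The calculation was tested on simulated data. The arrays lay on 1 slide with 1 scan. The brightest probe stands for a gene, and up to 4 called genes of each list and the 3 nearest patterns of each called member were named. For a probe below background on a whole group, the mean of the brighter group was set against the higher of the probe's own level and the lowest level above background on each dim array. The members and lists were chosen with earlier results of these data known. Protein sequences were not used here, and values of certain single genes are not reported here.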

Additional observations from a re-analysis of the deposited data

How the results depend on the processing

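The number of family genes called higher was 0 in all 3 comparisons under all 20 alternatives. With cordycepin plus serum against serum, 3 genes were called lower, and 2 to 4 when an array was left out. It was 4, with Cish, under quantile normalisation, median centring and no minimum change, and 2, without Socs3, under spike-in centring. With cordycepin plus serum against no serum it stayed at 2. Same-numbered arrays of the serum and cordycepin groups deviated with correlations of 0, -0.17 and 0.14 over all probes tested. For arrays with different numbers these were -0.32 to 0.32, so they do not settle whether the numbers mark pairs. With the replicate number as a block the counts were again 3 and 2, and the clone probe of Socs6 was called against no serum (1.70, adjusted p = 0.0408). It was also called there with the array row as a block (1.73), with only the 2 groups in the fit and at the study's unadjusted p. The same held without the first or second serum array, and without the second no serum array its change was 2.19. Its direction was set by the filter, which it passed through the cordycepin arrays alone, so these calls are a description.

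Of 717 member values recomputed, 21 changed sign, and 0 of these were called. For the Socs6 mRNA probes these were 0 (quantile) and -0.05 (median centring) against serum, 0.13 (normexp) against no serum and -0.25 (spike-in) for serum. The clone probe gave 0.14 for serum with normexp. Socs7 gave -0.04 (spike-in) for serum, and -0.21 (spike-in) and -0.04 (median centring) for cordycepin plus serum against no serum. Leaving out each array, Socs2 ranged from -0.58 to 0.11 and from -0.71 to 0.21 against serum for the brightest and the chromosome 10 probe. For serum against no serum the 3 Socs2 probes ranged from -0.98 to 0.28, -1.23 to 0.22 and -0.85 to 0.51, and the third from -1.27 to 0.08 with cordycepin against no serum. Socs7 ranged from -0.32 to 0.06 and -0.01 to 0.35 with cordycepin against serum and no serum, and the Socs6 probes from -0.82 to 0.30 (clone, serum) and -0.22 to 0 (second probe, cordycepin against no serum). The cause was not tested.

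Over all probes, calls with cordycepin plus serum against serum numbered 2333 higher and 922 lower. These were 891 and 408 with normexp, 1577 and 428 with spike-in centring, 1855 and 1808 with median centring, 1102 and 718 with probes above background on all arrays, and 3614 and 2379 with no minimum change. The share called higher was 71.7%, and 59.7% with quantile normalisation and 50.6% with median centring, which moved the median of all probes to -0.21. For serum against no serum, 271 and 277 became 174 and 58 with normexp, 54 and 155 with spike-in centring (25.8% higher, against 49.5%), 135 and 91 with no filter, 248 and 144 with probes above background on all arrays, 400 and 606 at the unadjusted p, 207 and 156 with only the 2 groups, and 162 and 131 or 137 and 122 without the first or second no serum array. For cordycepin plus serum against no serum, 1994 and 949 became 1036 and 349 with normexp, 829 and 611 with spike-in centring, 1691 and 1521 with median centring (52.6% higher, against 67.8%, with a median of -0.13), 1012 and 678 with probes above background on all arrays and 2800 and 1898 with no minimum change. Spike-in centring moved the median of all probes to -0.31 there. Of the family, only the clone probe fell below background.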
